A study of Mus musculus with 12 samples.

Results

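Expression of 48 genes of the cell cycle and of DNA replication was followed over circadian time in mouse eyes. The genes were chosen by name, as the rows of the deposited count table for a fixed list of cyclins, cell cycle kinases, kinetochore, centromere and spindle genes, replication and repair genes, Wee1 and Cdkn1a. The list was drawn up with earlier results of these data known. All 48 genes were among the 32544 entries of the table. Of these, 47 were among the 15134 genes with enough counts to be tested. Bub1, a checkpoint kinase, had 114 counts in all 12 libraries together, between 2 and 19 per library, and was not tested.

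The libraries came from whole eyes of male mice 12 weeks old, either WT (Cre-) or carrying a retina-specific deletion of Nr3c1, the glucocorticoid receptor (cKO, Cre+). Both genotypes were held for 2 weeks in 12 h of light and 12 h of darkness, then moved to constant darkness. Eyes were taken on the 2nd day there at circadian times (CT) 2, 6, 10, 14, 18 and 22 h, where CT0 is the start of subjective day and CT12 the start of subjective night. Each library was made from the pooled RNA of 3 mice, in equal shares, with 1 library per genotype and time (6 per genotype), so spread between single mice was not measured and each value below is 1 pool. The sources used here do not name the Cre driver or say which cells outside the retina it reaches.

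The sample labels give nonpigmented ciliary epithelium, as a cell line, for the source, whereas the protocols speak of whole eyes. All 7 markers of nonpigmented ciliary epithelium were present, with a summed level between 364.4 and 530.3 CPM (the count scaled to library size). Markers of other eye tissues were present too: 6 rod markers summed to between 38363 and 49916 CPM, 10 lens markers to between 32615 and 55832 CPM, and 12 corneal and conjunctival markers to between 6949 and 10981 CPM. Library totals ran from 10466253 to 10686868 counts, a spread of 2.11%. The targeted gene, Nr3c1, lay between 55.4 and 76.0 CPM in WT and between 38.8 and 49.6 CPM in cKO, a log2 difference of -0.52 ± 0.06 (SE; adjusted p = 0.0018 by the quasi-likelihood test of edgeR), lower in cKO at all 6 times.

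Dividing cells copy their DNA in S phase and separate the copies in mitosis, and transcription of the genes for each step comes in waves. E2F factors switch on genes for DNA synthesis at the start of S phase, while mitotic genes are held back until G2 by the DREAM complex, which binds the cell cycle homology region (CHR) in their promoters, and are activated there by B-MYB and FOXM1 together with NF-Y at CCAAT boxes. In the adult eye, neurons of the retina no longer divide, and the corneal, conjunctival and lens epithelia are among the tissues that do. The circadian clock acts on the cycle in several tissues, with Wee1 and Cdkn1a as known points of contact in mouse liver.

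Promoters of 5 members whose levels followed a 24 h rhythm are shown first, to let the DNA of the mitotic genes Cdk1, Top2a and Mki67 be read beside that of the replication genes Mcm6 and Mcm7. Each line gives the 180 bases before the RefSeq transcription start on the minus strand of GRCm38.p6, read 5′ to 3′ along the gene. Capitals mark the CHR word TTTGAA and the E2F words, on either strand. The E2F words searched were TTGGCGC, which stands in Cdk1, Mki67 and Mcm6, then TTCGCGC, which stands in Cdk1 and on the opposite strand in Mcm6, then TTCCCGC, found on the opposite strand in Mcm7, and last TTGCCGC, which is in none of these 5 stretches.

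Cdk1, chr10:69352913-69353092: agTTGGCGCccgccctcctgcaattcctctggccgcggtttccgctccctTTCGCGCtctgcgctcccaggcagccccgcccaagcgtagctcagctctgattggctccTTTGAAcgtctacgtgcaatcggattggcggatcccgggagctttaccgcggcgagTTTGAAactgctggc

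Top2a, chr11:99024190-99024369: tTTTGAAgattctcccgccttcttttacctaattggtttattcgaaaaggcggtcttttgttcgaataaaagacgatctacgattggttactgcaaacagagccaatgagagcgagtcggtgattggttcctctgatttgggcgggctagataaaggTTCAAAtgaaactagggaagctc

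Mki67, chr7:135716380-135716559: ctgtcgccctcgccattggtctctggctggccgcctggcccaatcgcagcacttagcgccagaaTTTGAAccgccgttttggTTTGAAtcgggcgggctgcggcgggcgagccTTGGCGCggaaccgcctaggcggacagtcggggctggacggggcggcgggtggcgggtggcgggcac

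Mcm6, chr1:128359706-128359885: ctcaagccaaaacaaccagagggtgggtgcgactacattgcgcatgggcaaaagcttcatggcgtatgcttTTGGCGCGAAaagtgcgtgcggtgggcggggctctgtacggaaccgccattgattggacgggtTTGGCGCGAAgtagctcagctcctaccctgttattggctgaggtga

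Mcm7, chr5:138171884-138172063: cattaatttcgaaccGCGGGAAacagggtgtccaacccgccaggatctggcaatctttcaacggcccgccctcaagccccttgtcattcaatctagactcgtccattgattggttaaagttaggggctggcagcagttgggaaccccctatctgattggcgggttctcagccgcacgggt

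The Cdk1 stretch held 2 CHR words and 2 E2F words, that of Top2a held 2 CHR words, and that of Mki67 held 2 CHR words and 1 E2F word. No CHR word was found in the stretches of Mcm6 and Mcm7. Mcm6 had 4 E2F words in 2 runs, each run being a pair of overlapping words read on opposite strands, and Mcm7 had 1. RefSeq gave windows from 250 bases before to 50 bases after the start for 39 of the 48 genes. Here and below, genes of DNA synthesis are the G1 and S cyclins and the genes of replication licensing and clamp, nucleotide supply and recombination repair. Genes of mitosis are all other members but Wee1 and Cdkn1a. The CHR word stood in 18 of 24 genes of mitosis (75%) and in 1 of 14 genes of DNA synthesis (7.14%). Of 27025 genes with a promoter entry, 20.2% held it. The E2F words showed the opposite split, with 3 of 24 mitotic genes (12.5%), 9 of 14 synthesis genes (64.3%) and 10.9% of all genes. CCAAT on either strand, which overlaps an E2F word in some promoters, was in 83.3% of the mitotic and 71.4% of the synthesis genes, against 41.1% of all. The E-box CACGTG, the word bound by CLOCK and BMAL1, was in 2 of the 39 genes (5.13%) and in 8.09% of all. The 9 members without a promoter entry, among them Wee1, Ccnd1 and Rad54b, were not searched for any word. These are counts of letters in a window and were not tested.

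A rhythm over the day was found in part of the cell cycle genes when both genotypes were fitted together. In a model with 1 cosine of 24 h common to WT and cKO, 14 of the 47 tested members (29.8%) passed at an adjusted p under 0.05, against 3.46% of all tested genes. At an unadjusted p under 0.05 the counts were 27 of 47 (57.4%) for the members and 18.7% for all genes. The members were listed with earlier results of these data known, so these shares describe the list and are no independent evidence of an excess. Of 150 other cell cycle genes tested, 9 (6%) passed at an adjusted p under 0.05. Fitted peak over trough had a median of 1.51-fold over the 47 members, against 1.12-fold over all tested genes. Over the genes that passed it was 1.84-fold for the 14 members, against 1.35-fold for all 523. Counting noise raises a fitted amplitude, which cannot be negative, and more so in genes with few counts. The sets were not matched for level, so these medians are not like for like. Leaving out 1 library brought the count of 14 down to 6 without WT at CT14, 7 without WT at CT2 or cKO at CT10, 8 without WT at CT18 or cKO at CT6, and 9 without WT at CT6, CT10 or CT22 or cKO at CT2. The shares of all tested genes in these fits are not given here, so the falls are not shown to be particular to the members. In bulk tissue, fewer dividing cells and less RNA per dividing cell cannot be told apart.

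Among the members, fitted peaks of the DNA synthesis group lay mostly in subjective night and those of the mitotic group in early subjective day. This difference was not itself tested. The synthesis group includes cyclins and repair genes, and other replication genes, given below, peaked by day as well as by night. All 6 synthesis genes that passed the shared test (Ccnd1, Mcm6, Mcm7, Rrm2, Rad54b and Brca1) had peaks in the subjective night, between CT17.5 and CT22.5. Of the 6 mitotic genes that passed, Top2a peaked at CT24.0 and Cdk1, Nuf2, Ndc80, Mki67 and Cenpf between CT0.9 and CT6.3, in early subjective day. Counting every tested member whatever its p, 24 of 27 mitotic genes had a fitted peak between CT0 and CT12 and 13 of 18 synthesis genes between CT12 and CT24, with circular mean peaks of CT2.5 and CT21.7. Among all tested genes, 49.9% peaked between CT0 and CT12. The 3 mitotic genes with night peaks were Ccna2, Cenpe and Top2a, and the 5 synthesis genes with day peaks were Ccne1, Mcm2, Cdc6, Rrm1 and Tyms, whose amplitudes were at most 0.09 on the log2 scale.

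**Figure D1:**
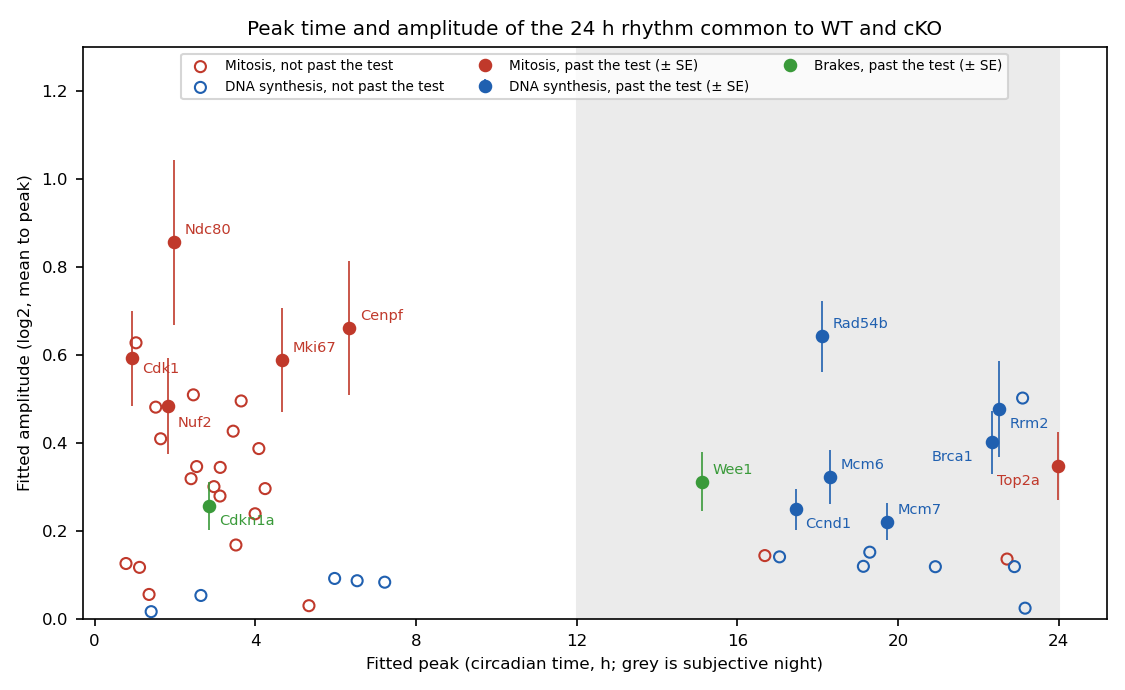
Fitted peak in circadian hours (x axis) against fitted log2 amplitude from mean to peak (y axis) for the 47 tested genes. Filled points with bars (± SE) passed the shared 24 h test and open points did not. The 6 filled synthesis genes lie between CT17.5 and CT22.5. The mitotic genes gather between CT0 and CT7, except Cenpe at CT16.7, Ccna2 at CT22.7 and Top2a at the end of the axis.

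Of the G1 and S cyclins, 1 of 3 passed. Ccnd1, cyclin D1, which starts the cycle from G1 with CDK4 and CDK6, stood in WT at 76.6, 87.8, 91.3, 90.5, 112.6 and 109.8 CPM from CT2 to CT22. In cKO its levels were 75.5, 70.9, 71.7, 109.9, 96.5 and 88.0 CPM over the same times. The 3 night libraries of cKO were all above its 3 day libraries, and in WT the high values were those of CT18 and CT22. Its fitted amplitude was 0.25 ± 0.05 (SE, log2) with a peak at CT17.5 ± 0.7 h (adjusted p = 0.0146, edgeR). The cyclins E, Ccne1 and Ccne2, which act with CDK2 at entry into S phase, did not pass, with amplitudes of 0.02 and 0.12. Ccne1 ranged from 3.15 to 4.73 CPM and Ccne2 from 7.26 to 9.68 CPM over the 12 libraries.

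Among the 9 genes that license and clamp replication, Mcm6 and Mcm7 passed. Both code for subunits of the MCM2-7 helicase that opens the DNA at origins. Mcm6 was at 11.4, 12.6, 12.1, 13.5, 18.9 and 17.5 CPM in WT and at 12.8, 13.7, 12.8, 19.2, 18.3 and 17.7 CPM in cKO, from CT2 to CT22. The step up came between CT14 and CT18 in WT and between CT10 and CT14 in cKO, and no library of CT18 or CT22 overlapped one of CT2, CT6 or CT10. Its amplitude was 0.32 ± 0.06 with a peak at CT18.3 ± 0.7 h (adjusted p = 0.0139). Mcm7 ran over a smaller range, at 21.7, 20.2, 18.6, 21.6, 23.3 and 26.4 CPM in WT and 20.0, 19.4, 20.5, 23.0, 26.7 and 25.9 CPM in cKO. Its amplitude was 0.22 ± 0.04 with a peak at CT19.7 ± 0.7 h (adjusted p = 0.0146). The other subunits of the same helicase had smaller fitted amplitudes and did not pass: 0.09 for Mcm2, 0.12 for Mcm3, 0.02 for Mcm4 and 0.15 for Mcm5.

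Pcna, the sliding clamp of the replication polymerases, was one of the 3 most abundant members per length (27.3 CPM per kb of exon model in WT). It stood at 64.5, 64.8, 60.9, 63.4, 63.1 and 76.7 CPM in WT and at 64.4, 61.8, 60.7, 64.9, 74.7 and 70.4 CPM in cKO. The highest library was CT22 in WT and CT18 in cKO, and its amplitude of 0.12 ± 0.03 did not pass (adjusted p = 0.106). Cdc6 and Cdt1, which load the helicase, lay between 1.24 and 2.40 CPM and between 2.78 and 4.57 CPM and did not pass.

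Nucleotide supply was split between the subunits of 1 enzyme. Rrm2, the small subunit of ribonucleotide reductase, whose supply is tied to S phase, was at 5.37, 5.13, 3.09, 3.36, 6.19 and 7.79 CPM in WT and at 6.07, 5.34, 2.68, 5.06, 5.91 and 5.40 CPM in cKO. Both genotypes had their lowest value at CT10. Amplitude was 0.48 ± 0.11 with a peak at CT22.5 ± 0.9 h (adjusted p = 0.0484), a call held in 8 of 22 alternatives. Rrm1, the large subunit, ranged only from 37.2 to 45.3 CPM, with an amplitude of 0.05 that did not pass. Tyms, thymidylate synthase, was between 10.7 and 15.5 CPM and did not pass either.

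Recombination repair held the steepest rhythm among the synthesis genes. Rad54b, a DNA translocase of homologous recombination, was at 4.69, 3.92, 4.40, 6.54, 10.7 and 6.88 CPM in WT and at 4.33, 3.53, 4.01, 5.91, 8.49 and 5.40 CPM in cKO. In both genotypes CT18 was the highest library and CT14 and CT22 were above all 3 day libraries. Its amplitude was 0.64 ± 0.08, a peak over trough of 2.44-fold, with a peak at CT18.1 ± 0.5 h (adjusted p = 0.0009). Rad54b was also the only member past the test for any difference between the 6 times (adjusted p = 0.0054), which 1.93% of all tested genes passed; without the 2 libraries of CT18 its adjusted p in that test was 0.163. Its exons share 2068 bases with those of Fsbp on the same strand in GENCODE M21, so reads could be divided between the 2 genes and its count is uncertain. Brca1, which directs repair of double-strand breaks, was at 10.4, 8.77, 9.18, 7.98, 13.0 and 15.8 CPM in WT and at 12.6, 10.3, 7.46, 9.38, 10.0 and 14.0 CPM in cKO. CT22 was its highest library in both genotypes, and the fit gave an amplitude of 0.40 ± 0.07 and a peak at CT22.3 ± 0.7 h (adjusted p = 0.0095). Rad54l, a relative of Rad54b, was low (0.67 to 2.50 CPM) and did not pass.

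**Figure D2:**
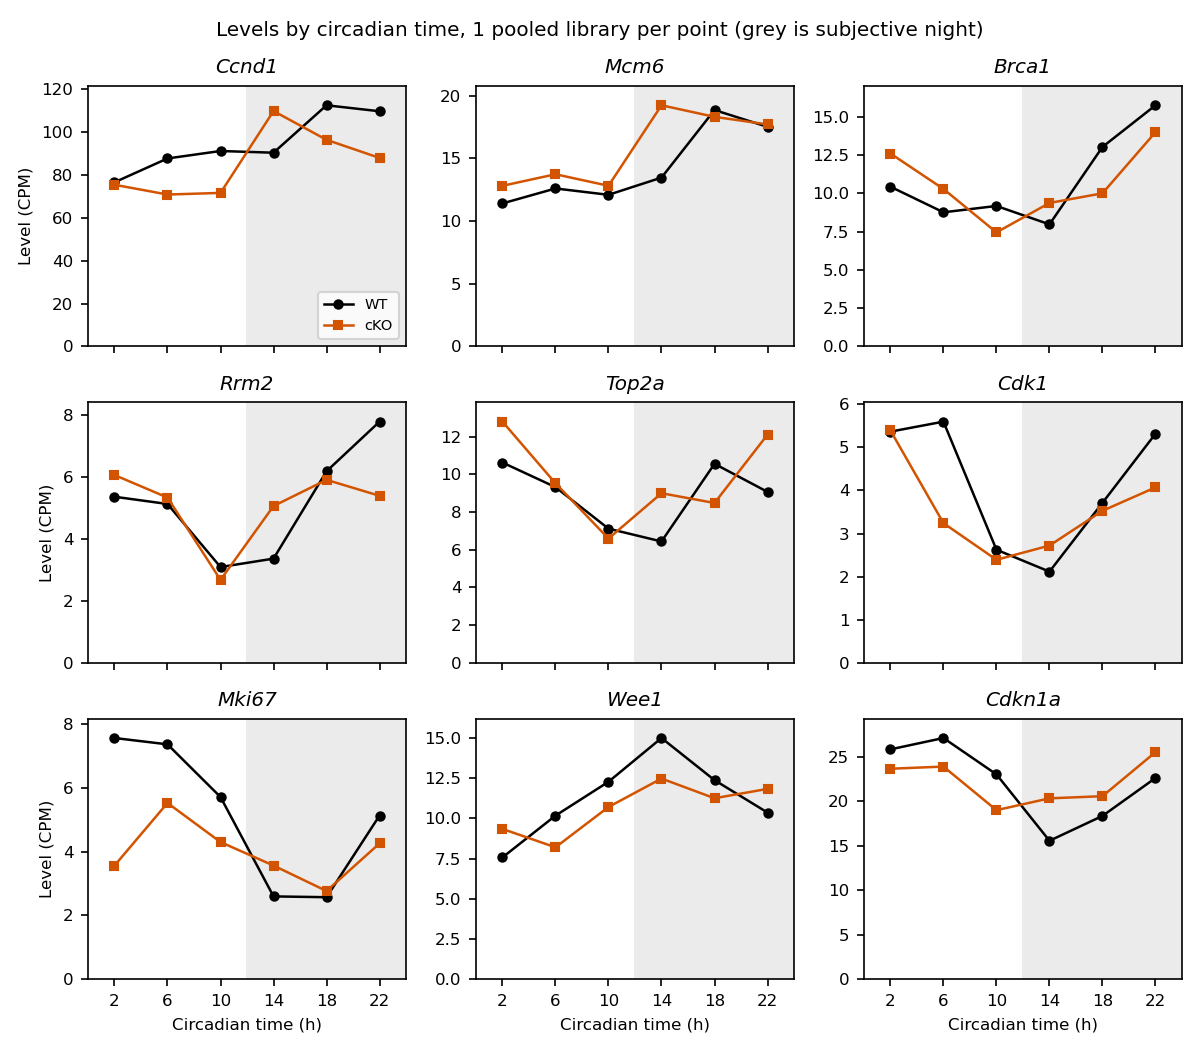
Level in CPM (y axis, from 0) at each circadian time (x axis) for 9 genes, with 1 pooled library per point, WT in black circles and cKO in orange squares. Ccnd1, Mcm6 and Brca1 are highest in subjective night, Cdk1 is lowest at CT10 and CT14 in both genotypes, and Wee1 is highest at CT14.

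Of the proliferation and chromosome genes, Mki67 and Top2a passed. Mki67, which codes for the Ki-67 protein that coats mitotic chromosomes, was at 7.57, 7.37, 5.72, 2.60, 2.57 and 5.13 CPM in WT and at 3.56, 5.53, 4.30, 3.56, 2.76 and 4.26 CPM in cKO. The first 3 libraries of WT were above all of cKO, while CT14 was lower in WT than in cKO. The common amplitude was 0.59 ± 0.12 with a peak at CT4.7 ± 0.8 h (adjusted p = 0.0206). Fitted by genotype it was 0.84 in WT (adjusted p = 0.0422) and 0.33 in cKO (adjusted p = 0.708), but the difference between the 2 rhythms did not pass (unadjusted p = 0.0532, adjusted p = 1.00), so no difference in rhythm is shown. Top2a, the topoisomerase that untangles replicated chromosomes, was at 10.6, 9.33, 7.12, 6.44, 10.6 and 9.08 CPM in WT and at 12.8, 9.53, 6.60, 9.004, 8.49 and 12.1 CPM in cKO. Its lowest library was CT14 in WT and CT10 in cKO, and its amplitude of 0.35 ± 0.08 peaked at CT24.0 ± 0.8 h (adjusted p = 0.0394), a call held in 9 of 22 alternatives.

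Cdk1 was the only one of 7 G2 and M cyclins and kinases to pass. Cdk1, the kinase that drives entry into mitosis, was at 5.37, 5.60, 2.62, 2.12, 3.71 and 5.32 CPM in WT and at 5.39, 3.24, 2.39, 2.72, 3.53 and 4.07 CPM in cKO. In both genotypes CT10 and CT14 were the lowest libraries and CT2 was high. Peak over trough was 2.28-fold, with an amplitude of 0.59 ± 0.11 and a peak at CT0.9 ± 0.7 h (adjusted p = 0.0109). Its partners did not pass: Ccnb1 and Ccnb2, the B cyclins, had amplitudes of 0.24 and 0.39, with their lowest WT value at CT14 (1.06 and 1.25 CPM). Ccna2, cyclin A2, which acts in S phase and G2, was much higher per length (8.55 CPM per kb in WT) and had an amplitude of 0.14 ± 0.04 (adjusted p = 0.0972). Plk1, Aurka and Aurkb, mitotic kinases, had amplitudes of 0.30, 0.17 and 0.63 and did not pass.

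Nuf2, Ndc80 and Cenpf passed among the 10 tested kinetochore, centromere and checkpoint genes. Nuf2 and Ndc80 pair to form the microtubule-binding arm of the NDC80 complex. Nuf2 was at 3.45, 3.26, 2.53, 1.54, 2.67 and 2.84 CPM in WT and at 3.95, 3.05, 1.91, 1.88, 2.38 and 3.12 CPM in cKO. Ndc80 was at 1.34, 1.21, 0.94, 0.19, 0.67 and 1.28 CPM in WT and at 1.83, 0.86, 0.76, 0.47, 0.67 and 1.23 CPM in cKO. For both genes CT14 held the lowest library of each genotype, and for Ndc80 these rested on 2 counts in WT and 5 in cKO. Amplitudes were 0.48 ± 0.11 for Nuf2 with a peak at CT1.8 ± 0.9 h (adjusted p = 0.0446) and 0.86 ± 0.19 for Ndc80 with a peak at CT2.0 ± 0.8 h (adjusted p = 0.0377).

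Cenpf, a large kinetochore protein of G2 and M, was at 2.30, 2.52, 2.90, 1.35, 0.86 and 1.83 CPM in WT and at 2.12, 2.00, 2.96, 1.03, 1.14 and 1.33 CPM in cKO. CT10 was its highest library in both genotypes, later than for the other mitotic genes that passed. The fit gave 0.66 ± 0.15 with a peak at CT6.3 ± 0.9 h (adjusted p = 0.0486), from 9 to 31 counts per library. Spc25 belongs to the same 4-subunit complex as Nuf2 and Ndc80 but stood apart in level, at 27.5 CPM per kb in WT against 0.43 for Nuf2, 0.15 for Ndc80 and 0.65 for the remaining subunit Spc24. Its level lay between 79.0 and 102.3 CPM in WT and between 73.4 and 83.0 CPM in cKO, with an amplitude of 0.06 that did not pass. The checkpoint genes Bub1b and Ttk had amplitudes of 0.03 and 0.41 and did not pass. Neither did Cenpa, the centromeric histone, at 0.30, Cenpe, a kinetochore motor, at 0.14, Hjurp, which loads Cenpa, at 0.13, or Birc5, a subunit of the chromosomal passenger complex, at 0.34.

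None of the 6 spindle and cytokinesis genes passed after adjustment, although 4 of them did at an unadjusted p under 0.05 and all 6 had fitted peaks between CT1.1 and CT3.6. Prc1, which bundles microtubules at the spindle midzone, came nearest. It ranged from 6.63 at CT14 to 12.8 CPM at CT2 in WT and from 6.28 at CT14 to 12.3 CPM at CT22 in cKO (amplitude 0.35 ± 0.08, adjusted p = 0.0579). Kif11, the motor that pushes spindle poles apart, had an amplitude of 0.50 ± 0.15 (adjusted p = 0.142). Kif20a and Kif23, motors of cytokinesis, had amplitudes of 0.43 and 0.32, and the spindle assembly factors Tpx2 and Nusap1 had 0.28 and 0.12. Cdc20 and Ube2c, an activator and the ubiquitin-conjugating enzyme of the anaphase-promoting complex, had amplitudes of 0.51 and 0.48 with adjusted p of 0.0831 and 0.0731.

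Both genes that restrain the cycle passed, with peaks far apart, although Wee1 kept its call in only 8 of 22 alternatives and Cdkn1a in 10. Wee1, the kinase that holds CDK1 inactive, was at 7.57, 10.2, 12.3, 14.998, 12.4 and 10.4 CPM in WT and at 9.34, 8.20, 10.7, 12.5, 11.3 and 11.8 CPM in cKO. CT14 was the highest library in both genotypes, the time at which most mitotic genes were lowest in WT. Its amplitude was 0.31 ± 0.07 with a peak at CT15.1 ± 0.8 h (adjusted p = 0.0347). Cdkn1a, the CDK inhibitor p21, was at 25.9, 27.2, 23.0, 15.6, 18.4 and 22.6 CPM in WT and at 23.7, 23.9, 19.0, 20.4, 20.6 and 25.6 CPM in cKO. It was lowest at CT14 in WT and at CT10 in cKO, with a common amplitude of 0.26 ± 0.05 and a peak at CT2.9 ± 0.8 h (adjusted p = 0.0332), close to the mean peak of the mitotic genes.

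**Figure D3:**
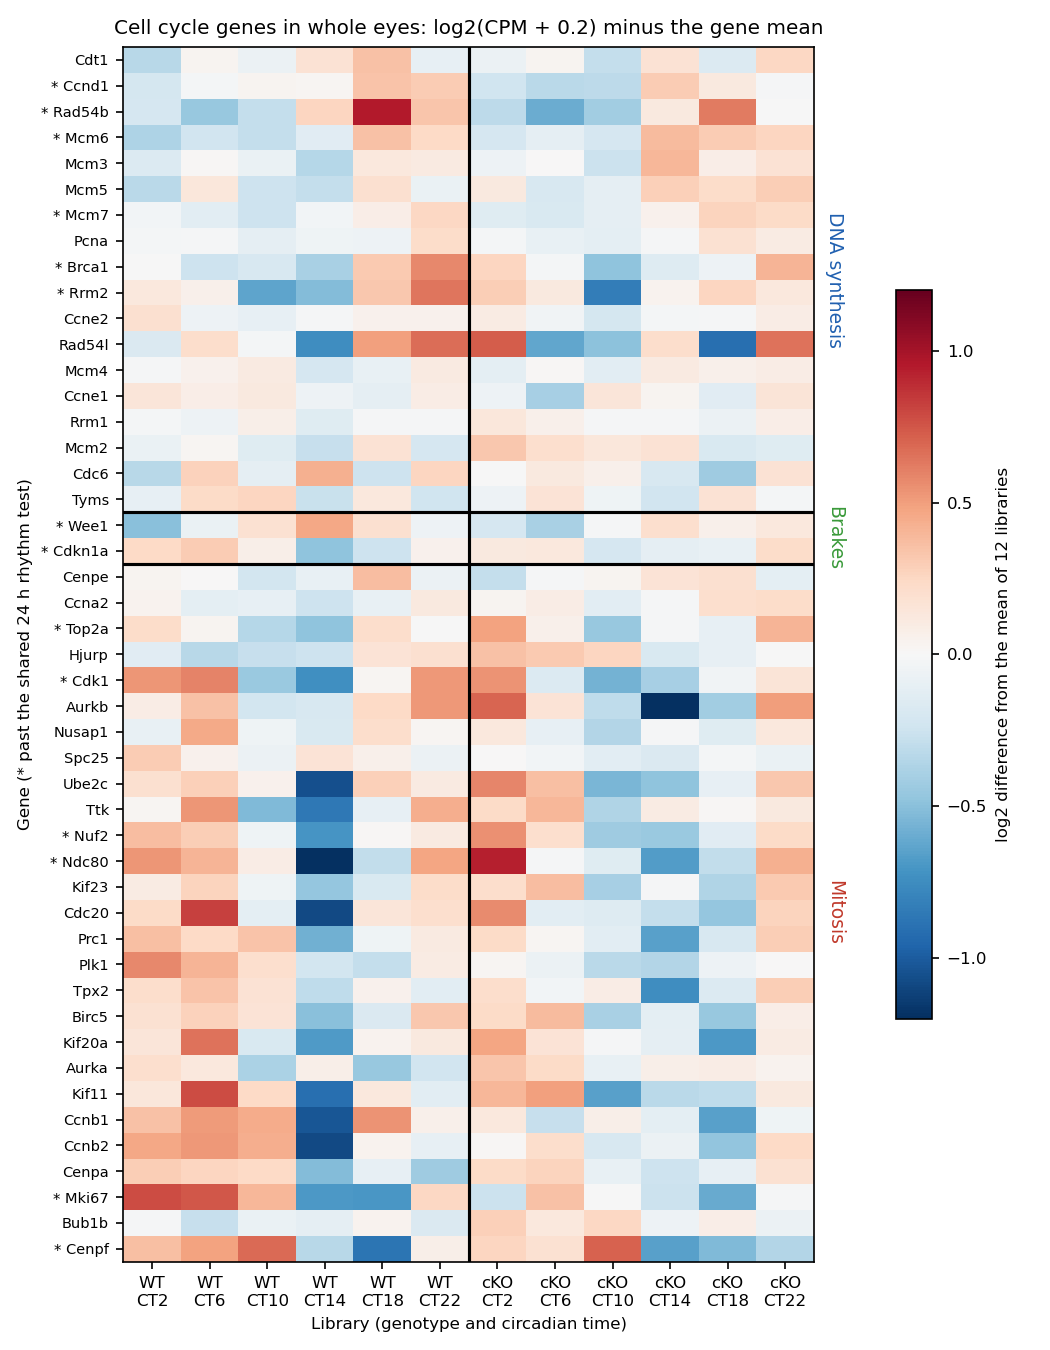
Each row is 1 of the 47 tested genes, ordered by group and fitted peak, and each column 1 library. Colour is log2(CPM + 0.2) minus the mean of the gene over 12 libraries, and differences beyond 1.2 in either direction share the end colour. The mitotic block is red at CT2 and CT6 and blue at CT14 in WT, and the starred synthesis genes at the top are red mostly at CT18 and CT22.

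Taken library by library, the mitotic genes were lowest as a group in WT at CT14. Their median centred log2 level in WT was 0.21, 0.34, -0.05, -0.51, 0.04 and 0.10 from CT2 to CT22, and CT14 was the lowest WT library for 18 of 27 genes. In cKO the same median was 0.24, 0.16, -0.14, -0.18, -0.15 and 0.13, CT2 was the highest library for 15 of 27, and the lowest was spread over CT10 (9 genes), CT14 (10) and CT18 (6). The synthesis genes had a flatter course, with medians of -0.09, 0.02, -0.11, -0.14, 0.15 and 0.17 in WT and -0.04, -0.04, -0.17, 0.08, 0.07 and 0.14 in cKO.

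Markers of the corneal and conjunctival epithelium moved with some of this. The mean centred log2 level of 12 such markers was -0.05, 0.10, -0.14, -0.43, -0.09 and 0.15 in WT and 0.04, 0.07, -0.30, 0.16, 0.15 and 0.33 in cKO. The WT library of CT14 was thus lowest for these markers and for the mitotic genes, whereas cKO at CT14 was above the mean for the markers and below it for the mitotic genes. Of the 12 markers, 2 passed the shared test (Krt14 and Krt16), and none was at 0. With the marker level of each library as a covariate, a fit chosen after the data were seen, 6 of 47 members passed: Ccnd1, Mcm6, Mcm7, Rad54b, Mki67 and Cdkn1a. The other 8 calls were lost, with adjusted p between 0.0524 and 0.306. The share of all tested genes past this fit is not given here. The loss of calls is thus not shown to be particular to the members. Among these, amplitudes with and without the covariate were 0.31 and 0.31 for Wee1, 0.65 and 0.66 for Cenpf, 0.80 and 0.86 for Ndc80, 0.44 and 0.48 for Nuf2, and 0.49 and 0.59 for Cdk1. They were 0.34 and 0.40 for Brca1, 0.30 and 0.35 for Top2a, and 0.33 and 0.48 for Rrm2.

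Markers of other tissues moved with some synthesis genes. The median centred log2 level of 7 stroma and sclera markers was highest in WT at CT18 (0.71) and in cKO at CT14 (0.51), the libraries in which Ccnd1 and Mcm6 were also highest, and summed to between 739.1 and 1490 CPM in WT and between 629.4 and 1231 CPM in cKO. None of the 7 passed the shared test. The 6 tested erythroid markers had a median of 1.13 in WT at CT18 and of -0.87 in cKO at CT18, both libraries in which Rad54b was highest; none passed the shared test, 6 of 6 had an unadjusted p under 0.05 for a rhythm in WT and 1 was called there. Shared rhythm was called for 2 of 7 markers of nonpigmented ciliary epithelium, Slc4a4 (peak CT10.7) and Aqp1 (peak CT17.0). It was called for 1 of 6 rod and 1 of 6 vessel markers, and for none of 10 lens, 8 tested immune and 5 tested extraocular muscle markers. The test for any difference between times (edgeR) called 4 of 10 lens and 5 of 5 muscle markers, against 1.93% of all tested genes. That test called 1 marker each of the corneal, immune, rod and ciliary lists, and none of the stroma, erythroid and vessel lists. Without the WT library of CT18 the shared amplitude was 0.25 for Ccnd1 (adjusted p = 0.0514), 0.30 for Mcm6 (adjusted p = 0.0631) and 0.57 for Rad54b (adjusted p = 0.0055). Without the cKO library of CT14 all 3 passed, with amplitudes of 0.22, 0.31 and 0.65. Beyond this and the corneal covariate, the part of these markers in the results was not tested.

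**Figure D4:**
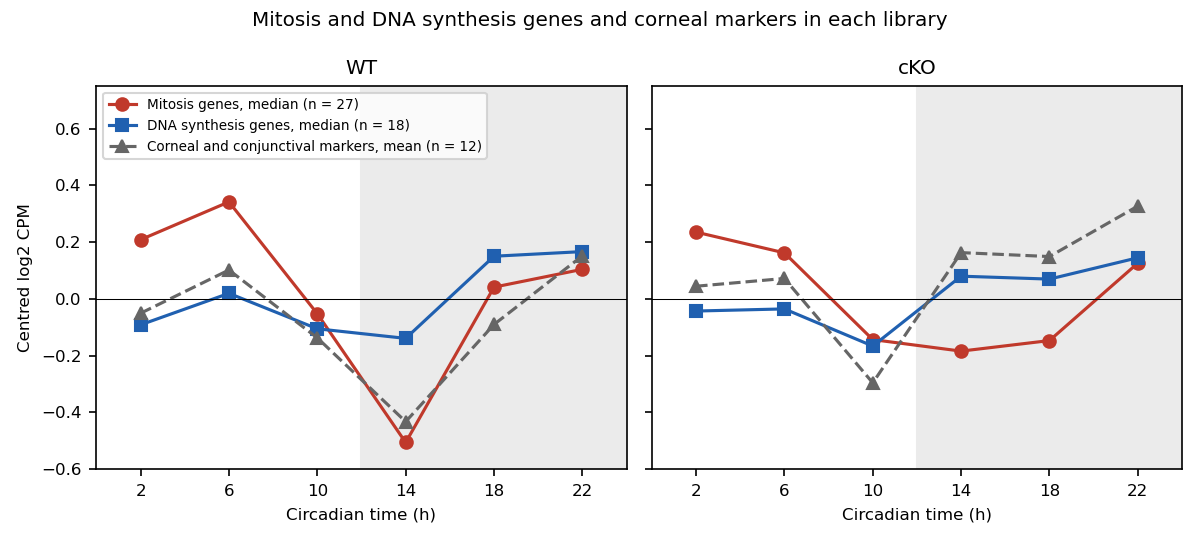
Centred log2 CPM (y axis) by circadian time (x axis) for WT at left and cKO at right, 1 library per time. Red circles are the median of 27 mitotic genes, blue squares that of 18 synthesis genes, and grey triangles the mean of 12 corneal and conjunctival markers. At CT14 the mitotic median is -0.51 and the marker mean -0.43 in WT, but -0.18 and 0.16 in cKO.

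By genotype alone, fewer members passed. In WT, Rad54b and Mki67 did (2 of 47, both with an adjusted p of 0.0422), against 0.363% of all tested genes, and 19 did at an unadjusted p under 0.05 (11.7% of all genes). Neither gene passed when both libraries of any 1 time were left out, and DESeq2 called Hjurp in their place. In cKO none of 47 did, against 0.152% of all tested genes, and 18 did at an unadjusted p under 0.05 (8.41% of all genes), while DESeq2 called 2, Ccnd1 and Hjurp. Median amplitude over the 47 members was 0.32 in WT and 0.25 in cKO, against 0.10 and 0.09 over all tested genes, again without matching for level.

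The test of the difference between the 2 rhythms passed for none of the members (edgeR), against 0.0132% of all tested genes, and 2 members had an unadjusted p under 0.05 (2.58% of all genes). The first was Hjurp, the 1 member that DESeq2 called. It stood at 43.2, 37.8, 39.3, 40.0, 53.3 and 54.5 CPM in WT and at 60.6, 59.1, 56.9, 41.8, 44.4 and 47.5 CPM in cKO. The 3 day libraries were the highest of cKO, whereas CT18 and CT22 were the highest of WT. Fitted peaks fell at CT20.4 in WT and CT4.9 in cKO, with amplitudes of 0.28 in each. Its difference missed the threshold with an adjusted p of 0.0938, and over 9 alternatives the adjusted p ran from 0.011 to 0.843 and passed in 3. Cdkn1a was the second (unadjusted p = 0.0346, adjusted p = 1.00), with amplitudes of 0.37 in WT and 0.19 in cKO.

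The mean level of the cell cycle genes did not differ between genotypes past the threshold. None of the 47 members passed the genotype test of edgeR, nor that of DESeq2, against 0.139% of all tested genes (0.0661% higher and 0.0727% lower), and 4 had an unadjusted p under 0.05 (8.51%, against 5.89% of all genes). With 19 higher and 28 lower in cKO, where 50.1% of all tested genes were lower, the median log2 difference was -0.02, and values ran from -0.37 ± 0.23 (SE) for Ccnb1 to 0.23 ± 0.14 for Aurka. The 4 members with an unadjusted p under 0.05 were Bub1b at 0.21 ± 0.06 (adjusted p = 0.540, edgeR), Spc25 at -0.15 ± 0.05 (adjusted p = 0.626), Ccna2 at 0.13 ± 0.05 (adjusted p = 0.783) and Ccnd1 at -0.16 ± 0.07 (adjusted p = 0.830). Bub1b, the checkpoint protein BUBR1, was at 22.4 ± 1.7 CPM (SD, n = 6 times) in WT and 25.8 ± 2.7 CPM in cKO. Tissue markers differed too. All 10 lens markers were higher in cKO (median log2 difference 0.15), 7 of them at an unadjusted p under 0.05 (edgeR). All 6 rod markers were higher (median 0.05) and all 7 stroma and sclera markers lower (median -0.09). Corneal and conjunctival markers split into 6 higher and 6 lower. The part of tissue content in the member differences was not tested.

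Bub1b and Aurka were higher in cKO at all 6 times, as were 2.04% of all tested genes. Spc25 and Rad54b were lower at all 6 times, as were 1.67% of all. For Spc25 the mean was 87.7 ± 8.9 CPM in WT and 79.0 ± 3.7 CPM in cKO (SD, n = 6 times). Both SDs include the variation over the day.

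**Figure D5:**
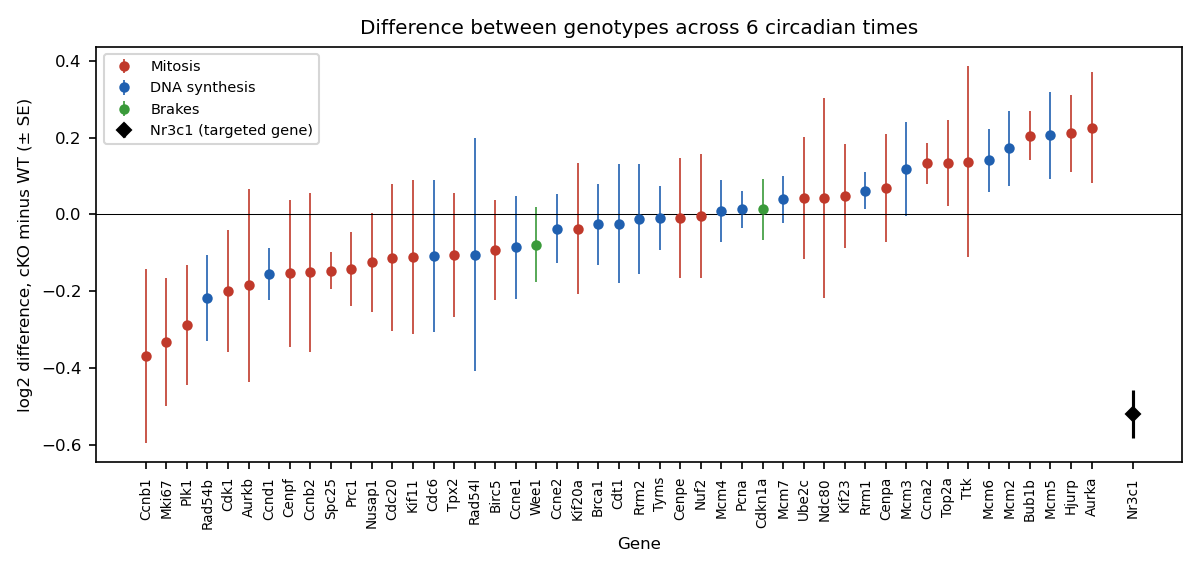
log2 difference of cKO minus WT (y axis, points ± SE) over the 6 times for each of the 47 tested genes in ascending order (x axis), with Nr3c1 at right for scale. Differences run from -0.37 for Ccnb1 to 0.23 for Aurka, and Nr3c1 is at -0.52.

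Further genes of the cell cycle were listed beside the members. Of 154 such genes, 150 were tested and 9 passed the shared test (6%), against 3.46% of all tested genes. None passed the genotype test in the main edgeR fit (9 at an unadjusted p under 0.05) or in DESeq2. In edgeR with no filter on low counts, 1 passed it. Their median amplitude was 0.12, against 0.30 for the members and 0.08 for all genes, sets not matched for level. Among the 8 with the smallest p, those of mitosis had day peaks: Hmgb2 at CT3.9, the kinase Pbk at CT1.2, the cytokinesis scaffold Anln at CT2.5, the spindle protein Ckap2l at CT0.4, the checkpoint protein Mad2l1 at CT3.4 and the motor Kif4 at CT8.4. Uhrf1, which maintains DNA methylation behind the replication fork, peaked at CT20.8, within the range of the synthesis members that passed. Tipin, a replication fork protein, peaked at CT3.4. Of the 42 other replication genes tested, 8 had an unadjusted p under 0.05 in the shared test (edgeR). Among these, Orc2, Fen1, Dut and Chaf1a peaked between CT2.5 and CT6.1. Uhrf1, Gins2, Gins4 and Asf1b peaked between CT15.1 and CT22.7.

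Of the 150 other cell cycle genes tested, only Hmgb2, a chromatin protein abundant in dividing cells, passed for any difference between times (adjusted p = 0.0011, edgeR). Only Hmgb2 passed for a rhythm in WT too (adjusted p = 0.0369, edgeR), a call held in 4 of 10 alternatives. It was at 96.1, 87.4, 76.7, 43.7, 57.2 and 60.5 CPM in WT and at 78.5, 90.3, 68.4, 48.02, 67.1 and 70.8 CPM in cKO. CT14 was the lowest library in both genotypes, and the common amplitude was 0.41 ± 0.06 (adjusted p = 0.0022). Kif4, a chromosome-bound motor, was highest at CT6 and CT10 in WT (9.14 and 9.18 CPM) and at CT14 and CT6 in cKO (7.22 and 7.05 CPM).

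Levels of the members spanned a wide range. Per kb of exon model in GENCODE M21, the median member was at 1.62 CPM in WT, and 3 of 48 were above 10 CPM per kb: Spc25, Pcna and Ccnd1. At the low end were Cenpf at 0.13 and Ndc80 at 0.15 CPM per kb. The exons of 11 members overlap those of another protein-coding gene, among them Prc1 with Rccd1, Ccnd1 with LTO1, Mcm7 with Ap4m1 and Ube2c with Tnnc2, all on opposite strands, and the sources used here do not say whether the counting used strand, so reads of such pairs may not be told apart.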

How the data were processed

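RNA was sequenced from whole eyes, with the RNA of 3 mice pooled per library, per the labels' protocols, giving 12 libraries (6 per genotype, 1 per circadian time). The deposited values are raw counts of each gene; the aligner, counting tool, strand setting, annotation and genome build were, for this table, not given in the sources used here. From them, 27 entries whose names had become dates were left out (a median of 0.158% of counts). Library sizes were scaled by TMM (edgeR 4.0.16, R 4.3.3) after filterByExpr by genotype (minimum count 10, minimum total 15), which left 15134 genes. CPM uses the TMM library size, and log2 CPM a prior count of 2.

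Quasi-likelihood F tests covered genotype (cKO minus WT, with time as a factor, so that libraries of 1 time form a pair), a 24 h cosine and sine common to both genotypes, any difference between times, a cosine and sine within each genotype, and the difference of those. Benjamini-Hochberg adjustment ran over all 15134 genes, with a threshold of 0.05. Each SE is the one implied by the F statistic, and libraries of 1 genotype or time are the replicates. The common coefficient of variation that edgeR estimated over all genes was 6.06% in the genotype fit, from what genotype and time left unexplained. With 1 pool per genotype and time, variation between replicate pools was not measured. The labels' numbers mark circadian times, so time is the pairing and no other exists. Depth limits the precision of members with few counts per library, such as Ndc80.

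Alternatives were DESeq2 size factors, no filter, DESeq2 1.42.0, leaving out each time, no time term, and each genotype alone. Single libraries left out and the corneal marker covariate were chosen after the data were seen. Members and lists were chosen with earlier results of these data known. All members could be named, with every library's value for those past a test and for Pcna, and of the other cell cycle genes the 8 with the smallest p per test. Hjurp, Bub1b, Spc25 and Aurka values were chosen after they were seen. Each test was checked on simulated counts holding known changes. These were placed only in genes above a minimum count, with the same spread for every gene, so members with few counts, such as Ndc80, were not covered. Exon models came from GENCODE M21 (GRCm38) and promoters from RefSeq (GRCm38.p6), matched by symbol.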

Additional observations from a re-analysis of the deposited data

Results flagged for a closer look

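Levels of 57 genes in each genotype (114 groups of 6 libraries) were searched for a library far from the other 5, and chance alone marks about 1 group in 20. The search marked 3 values. Pcna in WT at CT22, at 76.73 CPM, stood above the other WT libraries, which lay between 60.9 and 64.8 CPM. Rrm2 in cKO at CT10, at 2.676 CPM, stood below the other cKO libraries, which lay between 5.06 and 6.07 CPM, and WT was also lowest at CT10. Ube2c in WT at CT14, at 2.019 CPM, stood below the other WT libraries, which lay between 4.59 and 5.43 CPM; in the same library the corneal markers were at their WT minimum, and their part in this value was not tested.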

How the results depend on the processing

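The count of 14 members past the shared rhythm test was 14 with DESeq2 size factors, 14 in DESeq2 and 11 with no filter, and fell to 6 with the corneal marker covariate. Leaving out both libraries of 1 time gave 3 (without CT10) to 8 (without CT6), with 4 to 6 calls without CT2, CT14, CT18 or CT22, and leaving out 1 library gave 6 (without WT at CT14) to 10. The fitted peaks of the 14 members that passed moved by at most 1.99 h in these; those of the other members were not followed. Rad54b passed in 21 of 22 alternatives, Mcm6 in 19, Cdk1, Brca1 and Mcm7 in 18, Ccnd1 in 17 and Mki67 in 13, whereas Cdkn1a passed in 10, Top2a in 9, Wee1 and Rrm2 in 8, Cenpf in 4, Nuf2 in 2 and Ndc80 in 4 of 20. The 9 other cell cycle genes became 6 in DESeq2, 8 with no filter, 4 with the covariate, and 3 to 7 when a time or library was left out (4 without WT at CT2 or CT14, 5 without cKO at CT6 or CT10), with Hmgb2 passing in all 22 (its rhythm in WT passed in 4 of 10, adjusted p up to 0.105). For any difference between times the count of 1 became 8 with no filter, 2 in DESeq2, 2 with the covariate, and 1 to 3 with a time left out (3 without CT14, 2 without CT18). In WT the count of 2 became 4 with no filter, 1 in DESeq2, 0 with WT fitted alone and 0 to 1 with a time left out. In cKO the count of 0 became 2 in DESeq2 and 1 with cKO fitted alone. For the rhythm difference 0 became 1 (Hjurp) with no filter, in DESeq2 and without CT14, and was 0 otherwise. The genotype test called 0 members in all 10 alternatives, including the fit without the replicate block, that is with no time term to pair the libraries. A shared cosine with a replicate block could not be fitted, since the times are the block. Shares of all tested genes past each alternative are not given here, so no shift in a count is shown to be particular to the members. The causes of these shifts were not tested.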
